A study of Mus musculus with 12 samples.

Results

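Cadherins and the proteins of vascular and epithelial junctions were followed as a group of 10 genes, Cdh1, Cdh2, Cdh5, Ctnnb1, Cldn5, Ocln, Tjp1, Esam, F11r and Jam2, among 55414 genes measured by RNA-seq in mouse lung. The group was drawn up by function, at a time when earlier results of these data were known. All 10 genes were found, and all 10 passed the filter on low values that left 15148 genes for testing. To examine how the loss of B cell-derived IL-10 relates to gene expression during acute lung injury, lungs of 12 mice on a C57BL/6J background were compared on day 4 after intranasal lipopolysaccharide (LPS). Each genotype had 6 lungs, 1 library from each. IL-10 B-KO mice carried floxed Il10 alleles deleted by Mb1-Cre, a recombinase driven by the B lineage gene Cd79a, and IL-10 B-WT mice were their corresponding controls. No lungs without LPS were analysed here, so that each difference is between genotypes after LPS. RNA came from whole lung excised after lavage, in which fewer cells of a type and less RNA per cell cannot be told apart.

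Neighbouring cells are held together at adherens junctions by classical cadherins, which bind their like on the next cell and are tied to the actin cytoskeleton through beta-catenin and alpha-catenin. Tight junctions lie beside them and close the gap between cells with claudins and occludin, which are anchored by scaffold proteins such as ZO-1. In the lung, E-cadherin joins airway and alveolar epithelial cells, VE-cadherin and claudin-5 join endothelial cells of the vessels, and N-cadherin joins mesenchymal cells, the mural cells of vessels and heart muscle cells.

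Before any result, the libraries were examined. Values were TPM, the share of a library's transcripts that a gene takes after scaling for gene length, and can therefore be compared between genes, while the number of reads behind them is unknown. Il10 itself was listed at 0 to 0.88 TPM in IL-10 B-WT and at 0 to 0.58 TPM in IL-10 B-KO lungs, too low in whole lung to check the deletion. Cd79a, the gene that carries the Cre, was at 15.3 to 258.64 TPM in IL-10 B-WT and 0 to 5.73 TPM in IL-10 B-KO lungs. Summed markers of alveolar type 2 cells (7 genes) reached 3301 TPM or more in every lung. Their lowest value belonged to IL-10 B-WT replicate 5, which also had the lowest sum of 7 general epithelial markers, 304.9 TPM against 582.6 TPM or more in the other lungs. The sum of 10 endothelial markers was 2134 TPM in IL-10 B-WT replicate 1, the lowest of its genotype, and 4554 TPM in IL-10 B-KO replicate 2, the highest of its genotype. Neutrophil markers (6 genes) summed to 274.3 to 2475 TPM in IL-10 B-WT and 1039 to 7510 TPM in IL-10 B-KO lungs, with overlap.

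Across the 12 lungs, the members spanned a range from 691.2 TPM on average for Cldn5 to 2.09 TPM for Cdh2. In order, Cldn5 was followed by Cdh5 at 439.8 TPM, Ctnnb1 at 303.1 TPM, Esam at 215 TPM, F11r at 116.4 TPM, Cdh1 at 71.7 TPM, Tjp1 at 55.2 TPM, Jam2 at 25.8 TPM and Ocln at 18.3 TPM. The endothelial transcripts Cldn5 and Cdh5 thus stood at the top of the order and the mesenchymal cadherin at its foot. Cldn5 exceeded Cdh5 in 12 of 12 lungs, whereas Jam2 exceeded Ocln in 7 of 12 and Cdh1 exceeded Tjp1 in 9 of 12. Ranges over the 12 lungs separated Esam from F11r and Ocln from Cdh2, and the other neighbours in the order overlapped.

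Promoter sequences in the mouse RefSeq table (GRCm38.p6) were found for 5 of the 10 members, F11r, Tjp1, Ctnnb1, Ocln and Cldn5, while Cdh1, Cdh2, Cdh5, Esam and Jam2 had no entry. The 250 bases before the annotated start are shown for 3 of them: Tjp1, the lower member with the smallest p among those with an entry, Cldn5, the most abundant member, and F11r, whose mean was higher in IL-10 B-KO lungs. They lie at chr7:65371245-65371494 on the minus strand (Tjp1), chr16:18776597-18776846 on the plus strand (Cldn5) and chr1:171437311-171437560 on the plus strand (F11r). The Tjp1 window lies inside the gene as GENCODE M21 draws it, since longer transcripts start farther upstream, the Cldn5 window ends at the base before the annotated gene, and the F11r window reaches just past the annotated start of the gene. Capitals mark GC boxes (GGGCGG, or CCGCCC on the other strand) and E-boxes (CAGGTG, or CACCTG on the other strand).
Tjp1: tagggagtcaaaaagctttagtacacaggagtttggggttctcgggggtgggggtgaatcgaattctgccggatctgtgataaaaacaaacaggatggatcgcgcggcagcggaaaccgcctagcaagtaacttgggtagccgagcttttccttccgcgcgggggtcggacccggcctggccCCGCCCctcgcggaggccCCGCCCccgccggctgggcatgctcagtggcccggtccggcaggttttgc
Cldn5: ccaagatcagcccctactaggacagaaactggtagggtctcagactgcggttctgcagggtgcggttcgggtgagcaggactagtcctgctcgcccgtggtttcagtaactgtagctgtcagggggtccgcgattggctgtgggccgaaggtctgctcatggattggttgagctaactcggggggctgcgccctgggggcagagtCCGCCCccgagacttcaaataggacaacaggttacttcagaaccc
F11r: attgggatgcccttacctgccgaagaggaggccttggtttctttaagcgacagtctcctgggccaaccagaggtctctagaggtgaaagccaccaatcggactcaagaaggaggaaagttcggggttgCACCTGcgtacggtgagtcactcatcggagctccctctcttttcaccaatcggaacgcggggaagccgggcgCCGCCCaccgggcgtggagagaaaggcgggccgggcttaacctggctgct

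The GC box was present in all 7 promoter windows of the 5 members and in 32.7% of 32851 mouse promoter windows of the same length. The Ctnnb1 windows overlap each other, as do the Ocln windows, so the 7 are not separate stretches. Tjp1 held 2 GC boxes and Cldn5 held 1. The E-box, the motif bound by Snail and Zeb family repressors, was present in the F11r window, in 1 of 2 Ocln windows and in 17.2% of all windows, and was not among the letters of the Tjp1, Cldn5 and Ctnnb1 windows. The ETS core (CCGGAA, both strands), present in 12% of all windows, was in 1 of 2 Ocln windows and in none of the 3 windows shown. GC content was 63.2% for Tjp1, 59.6% for Cldn5 and 60% for F11r, against a median of 52.4% over all windows. It was 74.8% and 74.4% for the Ctnnb1 windows and 64% and 69.2% for the Ocln windows, so all 7 lay above that median. These matches describe the letters alone.

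Differences between genotypes were tested with limma on log2(TPM + 1) over all 15148 genes, with Benjamini-Hochberg adjustment. None of the 10 members passed an adjusted p of 0.05, a threshold passed by 0.522% of all genes tested. At an unadjusted p of 0.05, 2 members, Cdh2 and Tjp1, had lower levels in IL-10 B-KO, where 5.71% of all genes were lower by the same rule, and 0 members were higher, where 6.83% of all genes were. Cdh2 alone of the 10 had groups without overlap, with every IL-10 B-KO lung below every IL-10 B-WT lung, as were 0.924% of all genes tested. By mean, 6 members were lower (Cdh2, Cdh5, Tjp1, Cldn5, Ocln and Esam) and 4 higher (Cdh1, Jam2, F11r and Ctnnb1), against a median log2 fold change of 0.10 over all genes tested. The direction for Ctnnb1 turned under quantile normalization and array quality weights, and without IL-10 B-WT replicate 5.

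**Figure D1:**
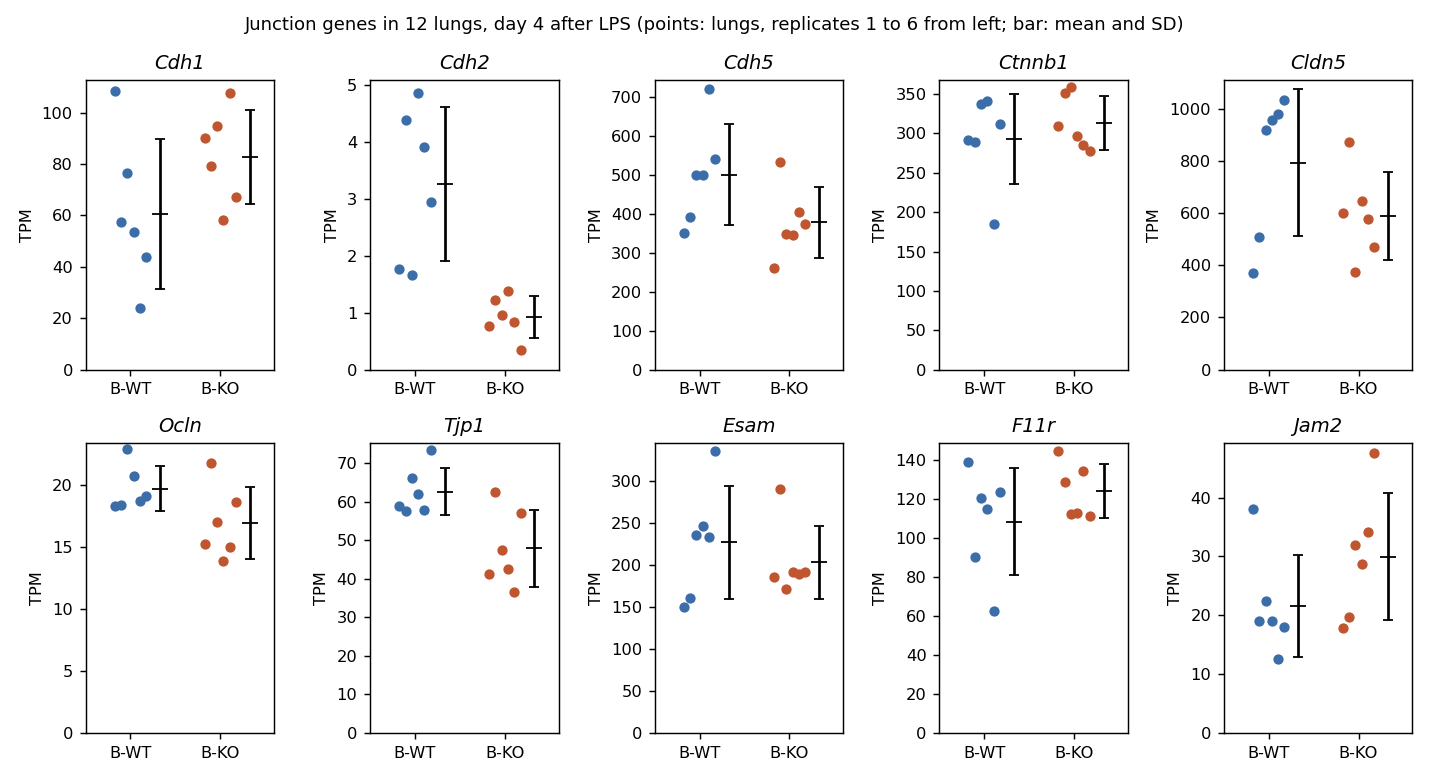
TPM of each of the 10 junction genes (vertical axes, from 0) in the 6 IL-10 B-WT lungs (blue) and 6 IL-10 B-KO lungs (orange), 1 point per lung in the order of the replicate numbers, with the group mean and SD as black bars. The groups are apart for Cdh2, where IL-10 B-KO lungs reach 1.38 TPM and IL-10 B-WT lungs start at 1.67 TPM, and overlap for the other 9 genes.

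Among the classical cadherins, Cdh2, which encodes N-cadherin (ENSMUSG00000024304, chr18:16588877-16809246, minus strand), showed the largest difference. It was at 1.77, 4.39, 1.67, 4.87, 3.92 and 2.94 TPM in the IL-10 B-WT lungs (replicates 1 to 6) and 0.77, 1.23, 0.96, 1.38, 0.83 and 0.35 TPM in the IL-10 B-KO lungs in the same order. All 6 IL-10 B-KO lungs lay below all 6 IL-10 B-WT lungs, and the closest were 1.38 and 1.67 TPM. Mean levels were 3.26 ± 1.35 TPM (SD, n = 6) and 0.92 ± 0.365 TPM (SD, n = 6), a ratio of 0.282. The log2 fold change was -1.11 (SE 0.23, 95% interval -1.60 to -0.61) with a limma adjusted p of 0.0558, just short of the threshold. The two-sided exact permutation test on Cdh2 alone gave p = 0.00216, the smallest that 6 lungs against 6 allow. At such low levels, the log2(TPM + 1) scale understates the ratio of the means. Cdh2 met the filter (1 TPM in at least 6 libraries) through its 6 IL-10 B-WT lungs, the group where it was higher. Of the IL-10 B-KO lungs, only replicates 2 and 4 reached 1 TPM, too few to meet the filter by themselves. With no filter, the limma adjusted p of Cdh2 was 0.176.

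The adjusted call for Cdh2 turned on single libraries. Without IL-10 B-WT replicate 1 the limma adjusted p was 0.0192, without IL-10 B-WT replicate 3 it was 0.046, and without both replicate 1 of IL-10 B-WT and replicate 2 of IL-10 B-KO it was 0.00504 with a log2 fold change of -1.27. With those 2 libraries out, 2228 of 14762 genes passed in place of 79, so that the background moved as well. The Cdh2 values of those 2 libraries, 1.77 and 1.23 TPM, lay on the side of their group mean nearer the other genotype. Leaving them out therefore had to widen the difference. Over its 21 alternatives, the adjusted p of Cdh2 ran from 0.00504 to 0.176.

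E-cadherin, encoded by Cdh1 (ENSMUSG00000000303, chr8:106603351-106670246, plus strand), was in the opposite direction by its mean. Levels in IL-10 B-WT lungs ran from 23.9 through a median of 55.5 to 108.5 TPM, and in IL-10 B-KO lungs from 58 through a median of 84.7 to 107.5 TPM. The groups overlapped, since IL-10 B-WT replicate 1 had the highest and replicate 5 the lowest value of all 12 lungs. Means of 60.6 ± 29.1 and 82.8 ± 18.3 TPM (SD, n = 6 each) gave a log2 fold change of 0.56 (95% interval -0.08 to 1.20, limma adjusted p = 0.454).

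VE-cadherin, encoded by Cdh5 (ENSMUSG00000031871, chr8:104101625-104144511, plus strand), is the adherens junction cadherin of endothelium. It was at 351 to 722.1 TPM (median 500.8) in IL-10 B-WT lungs and at 261.9 to 534 TPM (median 361.1) in IL-10 B-KO lungs. Lungs of the genotypes overlapped, although 3 of 6 IL-10 B-KO lungs lay under the whole IL-10 B-WT range. The log2 fold change was -0.40 (95% interval -0.85 to 0.05, limma adjusted p = 0.443), and -0.60 (adjusted p = 0.056, in a range of 0.056 to 0.672 over 22 alternatives) without replicate 1 of IL-10 B-WT and replicate 2 of IL-10 B-KO. These libraries held the lowest IL-10 B-WT and the highest IL-10 B-KO value of Cdh5, so leaving them out had to widen the difference.

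Ctnnb1 (ENSMUSG00000006932, chr9:120929216-120960507, plus strand) encodes beta-catenin, which links cadherins to the cytoskeleton and also acts in Wnt signalling. Its level was 184.6 to 340.8 TPM (median 302) in IL-10 B-WT and 278.1 to 359.6 TPM (median 303.1) in IL-10 B-KO lungs. The medians were nearly the same, and the log2 fold change of 0.12 (95% interval -0.24 to 0.48, limma adjusted p = 0.763) was close to the 0.10 of all genes. IL-10 B-WT replicate 5, at 184.6 TPM, was the single low lung.

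**Figure D2:**
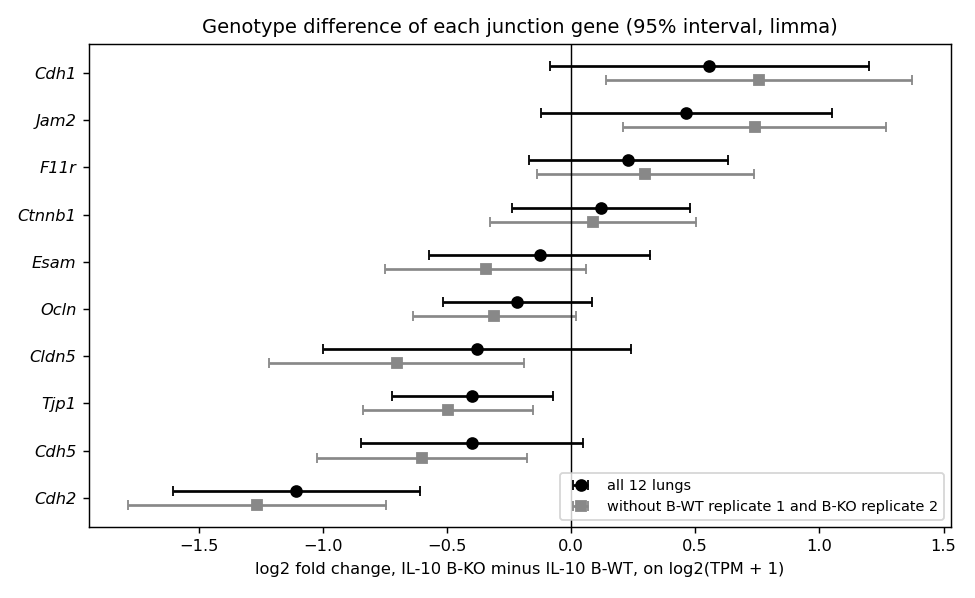
Log2 fold change of each junction gene between IL-10 B-KO and IL-10 B-WT on the log2(TPM + 1) scale (horizontal axis), with the 95% interval from limma as bars, for all 12 lungs (black circles) and without replicate 1 of IL-10 B-WT and replicate 2 of IL-10 B-KO (grey squares). Cdh2 lies farthest from 0 at -1.11 and -1.27, and the black intervals of Cdh2 and Tjp1 alone exclude 0. For Cdh1, Cdh2, Cdh5, Cldn5, Tjp1, Ocln, Esam and Jam2, both lungs left out lay past their group mean toward the other genotype. Leaving these lungs out had to widen the grey differences of those genes.

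Of the tight junction members, Cldn5 (ENSMUSG00000041378, chr16:18776847-18778262, plus strand) encodes claudin-5, the main claudin of endothelium. It was at 368.1, 506.2, 917.9, 955.2, 978.4 and 1034 TPM in the IL-10 B-WT lungs (replicates 1 to 6), and 598, 870.2, 375.1, 647.6, 575.8 and 468.6 TPM in the IL-10 B-KO lungs in the same order. Of the IL-10 B-WT lungs, 4 lay above every IL-10 B-KO lung, but replicates 1 and 2 lay within or below the IL-10 B-KO range. The log2 fold change was -0.38 (95% interval -0.999 to 0.241, limma adjusted p = 0.566). Leaving out replicate 1 of IL-10 B-WT and replicate 2 of IL-10 B-KO moved it to -0.70 with an adjusted p of 0.0643, the lowest over 22 alternatives that reached up to 0.806. These libraries held the lowest IL-10 B-WT and the highest IL-10 B-KO value of Cldn5, so leaving them out had to widen the difference.

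Tjp1 (ENSMUSG00000030516, chr7:65296165-65527781, minus strand) encodes ZO-1, the scaffold that ties tight junction proteins to actin and whose promoter is shown above. Its 6 IL-10 B-WT values were among the tightest of the group, from 57.4 through a median of 60.4 to 73.3 TPM, and IL-10 B-KO lungs ran from 36.6 through a median of 44.9 to 62.5 TPM. In IL-10 B-KO, 5 of 6 lungs lay under the lowest IL-10 B-WT value, the exception being replicate 2 at 62.5 TPM. Means were 62.6 ± 6.16 and 47.9 ± 9.99 TPM (SD, n = 6 each). The log2 fold change of -0.40 (SE 0.15, 95% interval -0.72 to -0.07) had an unadjusted limma p of 0.0196 and an adjusted p of 0.330. An unadjusted p of at most 0.05 was reached under 21 of 22 alternatives, the exception being without replicate 5 of IL-10 B-KO.

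Occludin, encoded by Ocln (ENSMUSG00000021638, chr13:100496507-100552718, minus strand), is a membrane protein of the tight junction strand. It was at 18.3 to 22.9 TPM (median 18.9) in IL-10 B-WT lungs and at 13.9 to 21.8 TPM (median 16.1) in IL-10 B-KO lungs. In IL-10 B-KO, 4 of 6 lungs lay under the IL-10 B-WT range, and replicate 2 was again the highest of them. The log2 fold change was -0.22 (95% interval -0.52 to 0.08, limma adjusted p = 0.509).

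None of the 3 immunoglobulin-like adhesion molecules passed the test, and their groups overlapped. Esam (ENSMUSG00000001946, chr9:37528078-37538319, plus strand), an adhesion molecule of endothelial cells, was at 149.4 to 335.8 TPM (median 234.6) in IL-10 B-WT and 170.9 to 290.4 TPM (median 190.4) in IL-10 B-KO lungs (log2 fold change -0.13, 95% interval -0.57 to 0.32, limma adjusted p = 0.799). F11r (ENSMUSG00000038235, chr1:171437535-171464603, plus strand), which encodes junctional adhesion molecule A of epithelium, endothelium and leukocytes, was at 62.6 to 139 TPM (median 117.8) and 111.5 to 144.8 TPM (median 121.1), with a log2 fold change of 0.23 (95% interval -0.17 to 0.63, limma adjusted p = 0.588). IL-10 B-WT replicate 5 was the low lung for F11r, as it was for Cdh1 and Ctnnb1.

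Jam2 (ENSMUSG00000053062, chr16:84774123-84825928, plus strand), which encodes junctional adhesion molecule B, was at 12.5 to 38 TPM (median 19.1) in IL-10 B-WT and 17.8 to 47.5 TPM (median 30.3) in IL-10 B-KO lungs. In IL-10 B-KO, 4 of 6 lungs exceeded 5 of the IL-10 B-WT lungs, while IL-10 B-WT replicate 1 was the second highest of all. Its log2 fold change was 0.46 (95% interval -0.12 to 1.05, limma adjusted p = 0.479), and 0.74 (adjusted p = 0.0599, in a range of 0.0599 to 0.738 over 22 alternatives) without replicate 1 of IL-10 B-WT and replicate 2 of IL-10 B-KO. The first held the highest IL-10 B-WT value, and the second, at 19.7 TPM, lay below its group mean of 30 TPM. Leaving them out therefore had to widen the difference.

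Since a ratio of 2 transcripts within a lung does not depend on the scaling of its library, 4 ratios were compared by two-sided exact permutation tests, with adjustment over the 4. The ratio of N-cadherin to E-cadherin transcripts ran from 0.0163 through a median of 0.0718 to 0.164 in IL-10 B-WT lungs and from 0.00522 through 0.00935 to 0.0238 in IL-10 B-KO lungs. Of the IL-10 B-KO lungs, 5 of 6 were under the lowest IL-10 B-WT ratio, and the mean log2 ratio fell by 2.40 (exact permutation p = 0.00866, adjusted p = 0.0173). The Cdh2 to Cdh5 ratio had medians of 0.00543 and 0.00253, and fell by 1.43 on the log2 scale (exact permutation p = 0.00433, adjusted p = 0.0173), again with 5 of 6 lungs below. With 1 TPM added to both transcripts before the ratio was taken, the log2 differences were smaller, -1.66 to Cdh1 (exact permutation p = 0.0108) and -0.71 to Cdh5 (exact permutation p = 0.0217, without adjustment). N-cadherin transcripts were thus lower relative to both the epithelial and the endothelial cadherin. Cdh2 was lower by itself, and the authors of these data had already named it as downregulated in IL-10 B-KO lungs. Both ratios therefore restate that difference in part and are not separate support for it.

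The Cdh5 to Cdh1 ratio had medians of 8.09 for IL-10 B-WT lungs and 4.67 for IL-10 B-KO lungs. Its log2 difference of -0.97 did not pass (exact permutation p = 0.0606, adjusted p = 0.0808), and IL-10 B-WT replicate 5 stood far above the rest at 30.2. It passed without IL-10 B-WT replicate 1, where the difference was -1.26 (exact permutation p = 0.00433). The Cldn5 to Cdh5 ratio had medians of 1.59 for IL-10 B-WT lungs and 1.52 for IL-10 B-KO lungs and a log2 difference of 0.021 (exact permutation p = 0.924), a difference whose sign turned when single lungs were left out.

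**Figure D3:**
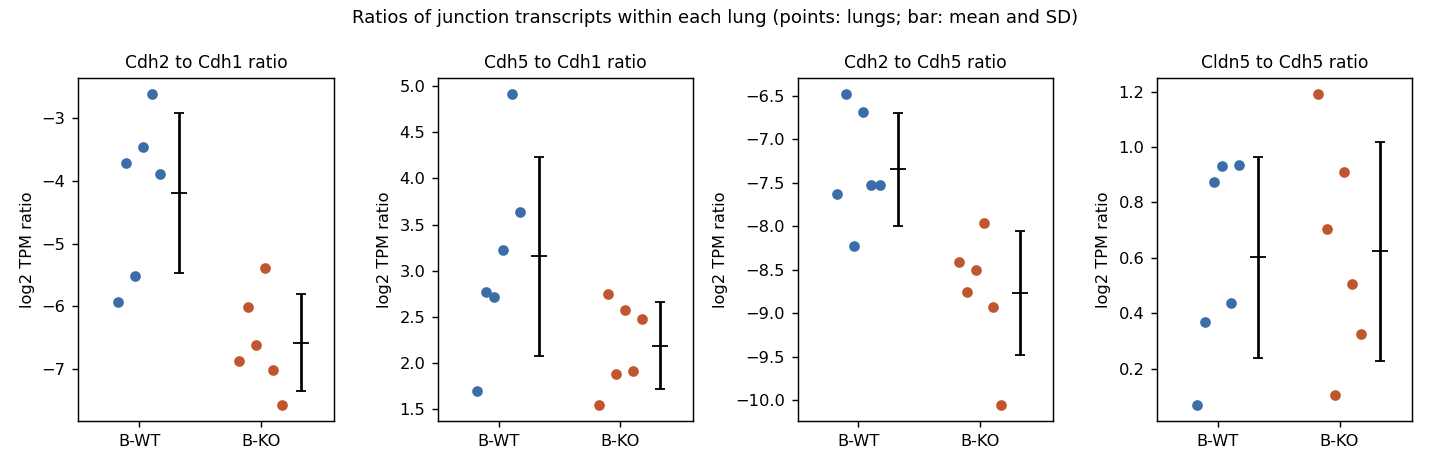
Log2 ratio of the TPM of 2 junction transcripts within each lung (vertical axes, separate scales) for IL-10 B-WT (blue) and IL-10 B-KO (orange), 1 point per lung, with the group mean and SD as black bars. Both ratios with Cdh2 as numerator are lower in IL-10 B-KO lungs, by 2.40 (to Cdh1) and 1.43 (to Cdh5), while the ranges of the Cldn5 to Cdh5 ratio overlap.

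Because whole lung was measured, the members were next set beside markers of the cell types known to carry them, by the difference of log2(TPM + 1) between the member and the mean of the list (11 relations, two-sided exact permutation tests, adjusted over the 11). For Cdh2, pericyte markers had the lower mean in IL-10 B-KO for 8 of 8 genes, and their sum was 343.6 to 793.7 TPM in IL-10 B-WT and 95.9 to 412.7 TPM in IL-10 B-KO lungs. The pericyte genes Notch3 and Pdgfrb passed (limma adjusted p = 0.0236 and 0.0456), but with 1 lung left out they passed in 5 and 2 of 12 fits. Smooth muscle markers were lower for 6 of 6 genes, with sums of 259.6 to 1065 TPM and 111.8 to 549.5 TPM. Heart muscle markers, present in every lung, were lower for 6 of 6 genes with sums of 64.8 to 1571 TPM and 23.4 to 428.5 TPM, and none of these last 12 genes passed. Fibroblast markers were lower for 3 of 6 genes, with sums of 189.4 to 711.8 TPM and 100.9 to 947.8 TPM.

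Relative to these lists, Cdh2 differed by -0.02 from the pericyte markers (exact permutation p = 0.890), by -0.22 from the smooth muscle markers (p = 0.485 by the same exact test) and by 0.14 from the heart muscle markers (exact permutation p = 0.848). Relative to fibroblast markers the difference was -1.11 (exact permutation p = 0.0519, adjusted p = 0.173). These comparisons depended on the number added before taking logs, since Cdh2 was at a few TPM or less. With 0.1 TPM added in place of 1, the difference was -0.53 to pericyte markers (exact permutation p = 0.0281), -0.79 to smooth muscle markers (exact permutation p = 0.0108), -1.71 to fibroblast markers (exact permutation p = 0.0173) and -0.37 to heart muscle markers (exact permutation p = 0.645), without adjustment. The part of these cell types in the Cdh2 difference was not tested.

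Within genotypes, after each group mean was subtracted, Cdh2 moved with the smooth muscle list over the 12 lungs (Pearson r = 0.91, permutation p = 0.00011, adjusted p = 0.000403, and Spearman rho = 0.83, permutation p = 0.00117, adjusted p = 0.00322). Leaving out the 2 lungs farthest from the median of the list, r was 0.86. For the pericyte list, r was 0.80 (permutation p = 0.00222, adjusted p = 0.00488), rho was 0.72 (permutation p = 0.0123, adjusted p = 0.0225) and r without the 2 farthest lungs was 0.78. For the heart muscle list, r was 0.84 (permutation p = 0.00406, adjusted p = 0.00744), rho was 0.76 (permutation p = 0.0195, adjusted p = 0.0306) and r without the 2 farthest lungs was 0.69. For the fibroblast list, r was 0.18 (permutation p = 0.533) and rho 0.38 (permutation p = 0.203). Of all genes tested, those closest to Cdh2 in this measure were Cnn1 (r = 0.94), which encodes the smooth muscle calponin and is on the smooth muscle list, Synpo2 (r = 0.94), an actin-binding protein of muscle, and Kcnmb1 (r = 0.93), a subunit of the smooth muscle potassium channel. Being the highest of 15148 genes, these are given as a description.

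Cdh1 followed the epithelial list closely. All 7 epithelial markers had the higher mean in IL-10 B-KO lungs, none with a limma adjusted p of 0.05 or less, and the mean of the list differed by 0.69 on the log2 scale. Markers of single epithelial types did not all lie on that side, with 7 of 7 alveolar type 2 genes higher by mean, but 5 of 7 alveolar type 1 genes, 4 of 4 club cell genes and 4 of 5 ciliated cell genes lower (median log2 fold changes 0.744, -0.144, -1.002 and -0.472), and 0 of these genes passed. Relative to the list, Cdh1 differed by -0.13 (exact permutation p = 0.110). Within genotypes, r was 0.97 (permutation p = 1e-05, the smallest that 100000 resamples can give, adjusted p = 0.00011), rho was 0.93 (permutation p = 0.00013, adjusted p = 0.000825), and r was 0.91 without the 2 farthest lungs. The 3 genes most like Cdh1 were Plpp2, Cdcp1 and Slc39a13, each with r = 0.98.

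F11r and Ocln, the other members set beside the epithelial list, followed it less closely by value. F11r, which is not confined to epithelium, was not set beside the lists of other cell types. For F11r, r was 0.78 (permutation p = 0.0121, adjusted p = 0.0167) but 0.28 without the 2 farthest lungs and rho was 0.52 (permutation p = 0.0993), so that the relation rests on those lungs. For Ocln, r was -0.03 (permutation p = 0.901) and rho -0.06 (permutation p = 0.852). Ocln relative to the epithelial list differed by -0.90 between IL-10 B-KO and IL-10 B-WT (exact permutation p = 0.0216, adjusted p = 0.173), and F11r by -0.46 (exact permutation p = 0.0628, adjusted p = 0.173). Neither difference passed after adjustment, and whether these genes differed from Cdh1 in this respect was not tested.

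Of the endothelial markers, 9 of 10 had the lower mean in IL-10 B-KO and 0 passed limma, with a list difference of -0.28. Relative to this list, Cdh5 differed by -0.12 (exact permutation p = 0.364) and Cldn5 by -0.10 (exact permutation p = 0.539). Against the median of the list instead of its mean, the difference for Cdh5 was -0.41 (exact permutation p = 0.00649). Within genotypes, Cdh5 had r = 0.78 with the list (permutation p = 0.00682, adjusted p = 0.0107), rho = 0.79 (permutation p = 0.0061, adjusted p = 0.0134) and r = 0.59 without the 2 farthest lungs. Cldn5 had r = 0.89 (permutation p = 0.00113, adjusted p = 0.00311), rho = 0.94 (permutation p = 0.00083, adjusted p = 0.00304) and r = 0.83 without the 2 farthest lungs.

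Esam lay closest to the endothelial list, with r = 0.96 (permutation p = 4e-05, adjusted p = 0.00022), rho = 0.97 (permutation p = 0.00015, adjusted p = 0.000825) and r = 0.92 without the 2 farthest lungs. Jam2 did not follow it, with r = -0.47 (permutation p = 0.15) and rho = -0.50 (permutation p = 0.117). Relative to the list, Esam differed by 0.15 (exact permutation p = 0.0390, adjusted p = 0.173; -0.14 against the median of the list) and Jam2 by 0.74 (exact permutation p = 0.106, adjusted p = 0.202). The genes most like Cdh5 were Pecam1 (r = 0.92), an endothelial adhesion molecule that is on the list, Klf7 (r = 0.89) and Bmpr2 (r = 0.88), a receptor for bone morphogenetic proteins.

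**Figure D4:**
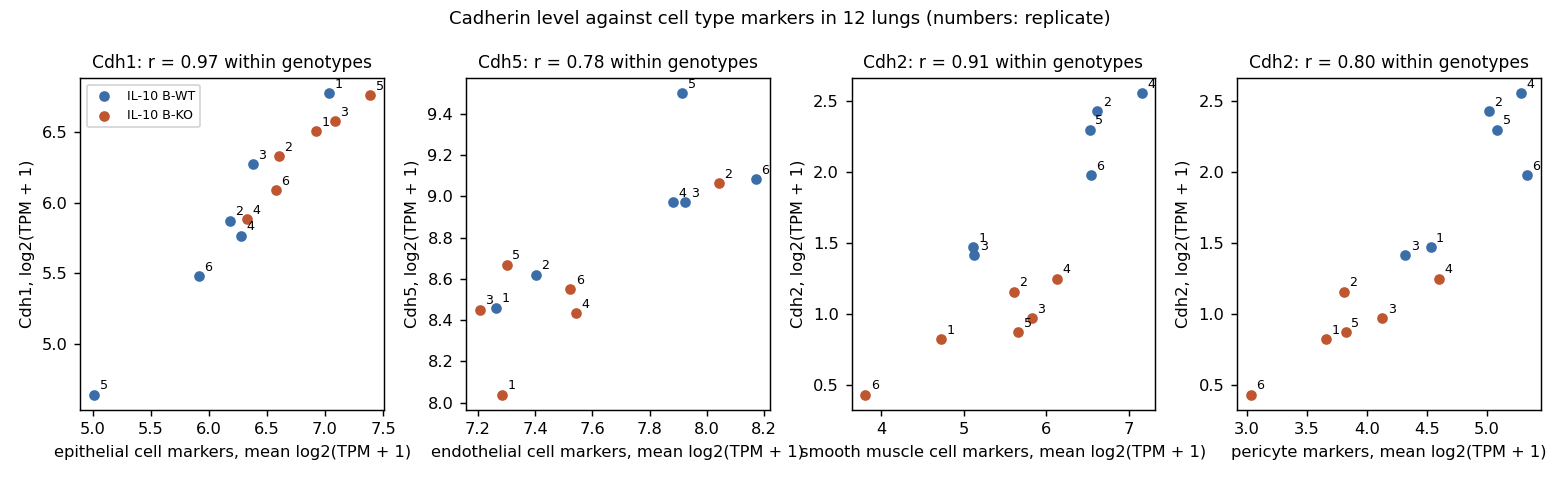
Level of Cdh1, Cdh5 and Cdh2 (vertical axes, log2(TPM + 1)) against the mean level of cell type markers in the same lung (horizontal axes, log2(TPM + 1)), for IL-10 B-WT (blue) and IL-10 B-KO (orange) lungs numbered by replicate. Points lie near a line for Cdh1 with epithelial markers (r = 0.97 within genotypes) and for Cdh2 with smooth muscle markers (r = 0.91), and scatter more for Cdh5 with endothelial markers (r = 0.78).

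The wider junction machinery was described with 9 lists of genes that also hold the members. In the list of adherens junction genes, 18 of 20 passed the filter, with 11 lower and 7 higher by mean, 6 were lower and 0 higher at an unadjusted limma p of 0.05, and 0 passed after adjustment. The list had a median log2 fold change of -0.16 against 0.10 for all genes. By the same unadjusted rule, 5.71% of all genes tested were lower and 6.83% higher, the shares to set beside the counts of each list. After Cdh2, the smallest p belonged to Ajuba, a LIM protein that binds alpha-catenin, which was at 17.1 to 29.5 TPM in IL-10 B-WT and 9.53 to 15.8 TPM in IL-10 B-KO lungs, without overlap (log2 fold change -0.77, limma adjusted p = 0.0833). Vcl, which encodes the actin linker vinculin, had means of 70.1 ± 10.6 and 44.3 ± 15.4 TPM (SD, n = 6 each) and a limma adjusted p of 0.244.

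In the list of other cadherins, Pcdh18, a protocadherin, fell from 12.7 ± 2.36 to 4.35 ± 2 TPM (SD, n = 6 each), with a log2 fold change of -1.42 (SE 0.24, limma adjusted p = 0.0208) and no overlap between 9.37 TPM, the lowest IL-10 B-WT lung, and 7.62 TPM, the highest IL-10 B-KO lung. It was the 1 gene of 14 tested to pass, and 10 of the 14 were lower by mean. Its call was lost in 6 of 12 fits with 1 lung left out (IL-10 B-WT replicates 4, 5 and 6 and IL-10 B-KO replicates 1, 3 and 5), where the limma adjusted p reached 0.0654, and over all 22 alternatives it ran from 0.00326 to 0.0815. Pcdh17, a protocadherin of endothelium and brain, and Cdh13, which encodes the membrane-anchored T-cadherin, differed by -0.42 and -0.60 on the log2 scale (limma adjusted p = 0.355 and 0.358). The median of the list was -0.28.

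Claudins had the opposite balance, with 7 of 10 tested higher by mean and a list median of 0.19, and 2 higher at an unadjusted limma p of 0.05. Cldn15, which forms paracellular cation channels, was at 1.65 ± 0.561 and 4.77 ± 2.62 TPM (SD, n = 6 each), and Cldn4, a sealing claudin of epithelium, was at 5.85 ± 3.74 and 16.7 ± 12.6 TPM (SD, n = 6 each). Neither passed after adjustment (limma adjusted p = 0.137 and 0.321). The alveolar claudin Cldn18, named after its values were seen, was at 119.7 and 125.2 TPM on average (log2 fold change 0.21, limma adjusted p = 0.769).

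Among 25 tight junction partners, 11 were lower and 14 higher by mean, and the list median was 0.05. Besides Tjp1, Jam3, which encodes junctional adhesion molecule C, was lower at an unadjusted p of 0.05 (10.2 ± 2.51 against 6.02 ± 1.75 TPM, SD, n = 6 each, limma adjusted p = 0.258). Lsr, a receptor of tricellular junctions, was higher by the same rule (21.3 ± 9.32 against 32.8 ± 8.39 TPM, SD, n = 6 each, limma adjusted p = 0.380). Desmosome genes showed 0 of 9 below an unadjusted p of 0.05, with a list median of 0.03. Of 9 genes tested in the list of gap junction connexins, 2 were lower and 7 higher by mean, with a list median of 0.29. At an unadjusted limma p of 0.05, 1 was lower and 1 higher, and 0 passed after adjustment. The lower one, Gjc1, was at 24.2 ± 5.14 and 18 ± 4.77 TPM (SD, n = 6 each, limma adjusted p = 0.396).

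Regulators of these junctions were examined in the same way. Of 24 endothelial junction regulators, 16 were lower by mean, 4 were lower and 0 higher at an unadjusted limma p of 0.05, and 0 passed. Foxf1, a transcription factor of lung endothelium and mesenchyme, had means of 267 ± 81.1 and 136.7 ± 60.6 TPM (SD, n = 6 each, limma adjusted p = 0.207). Arhgap29, an effector of Rap1 signalling at endothelial junctions, and Ets2, an ETS family transcription factor, had log2 fold changes of -0.56 and -0.41 (limma adjusted p = 0.246 and 0.304). Erg, an ETS factor that acts on Cdh5 and Cldn5 in endothelium, was at 52.3 ± 8.77 and 48.5 ± 13 TPM (SD, n = 6 each, limma adjusted p = 0.774), and is named after its values were seen.

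Of 7 repressors of E-cadherin tested, 4 were lower and 3 higher by mean. At an unadjusted limma p of 0.05, 3 were lower and 0 were higher. Zeb1 was at 22.1 ± 3.18 and 16 ± 3.01 TPM (SD, n = 6 each), Snai2 at 2.86 ± 0.849 and 1.67 ± 0.399 TPM (SD, n = 6 each) and Twist2 at 3.21 ± 1.59 and 1.47 ± 0.873 TPM (SD, n = 6 each), with limma adjusted p of 0.298, 0.311 and 0.341. These 3 factors are also expressed by mesenchymal cells. The list median was -0.16.

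Beta-catenin target genes gave the other call of the 9 lists. Tnfrsf19, a receptor of the tumour necrosis factor family, fell from 9.84 ± 1.82 to 3.67 ± 1.3 TPM (SD, n = 6 each), with a log2 fold change of -1.25 (SE 0.22, limma adjusted p = 0.0234) and without overlap. With 1 lung left out, its call was lost in 7 of 12 fits (IL-10 B-WT replicates 2 to 6 and IL-10 B-KO replicates 1 and 5), with a limma adjusted p of up to 0.0726, and of 0.00527 to 0.119 over all 22 alternatives. Axin2, a feedback inhibitor of Wnt signalling, was at 8.8 to 12.4 TPM in IL-10 B-WT and 4.92 to 8.47 TPM in IL-10 B-KO lungs (log2 fold change -0.53, limma adjusted p = 0.237). It too was without overlap, as were 0.924% of all genes tested in this direction. Lef1, a transcription factor that partners beta-catenin, had a log2 fold change of -1.01 (limma adjusted p = 0.232). In all, 8 of 12 tested genes were lower by mean, 4 were lower and 0 higher at an unadjusted p of 0.05, and the list median was -0.23, while Ctnnb1 itself had a log2 fold change of 0.12.

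Without replicate 1 of IL-10 B-WT and replicate 2 of IL-10 B-KO, 15.1% of all genes tested passed a limma adjusted p of 0.05 in either direction. The share for each direction was not computed. At an unadjusted limma p of 0.05, 1342 of 14762 genes were lower and 3221 higher in that fit. At an adjusted p of 0.05, 6 of 18 adherens junction genes, 3 of 13 other cadherins and 1 of 7 E-cadherin repressors were lower. None of these lists had a higher call. Endothelial junction regulators had 2 lower and 1 higher of 24, beta-catenin targets 2 lower and 1 higher of 12, and tight junction partners 1 lower and 1 higher of 25. Claudins had 0 lower and 1 higher of 10, connexins 0 lower and 2 higher of 8, and desmosome genes 0 of 9 in either direction.

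**Figure D5:**
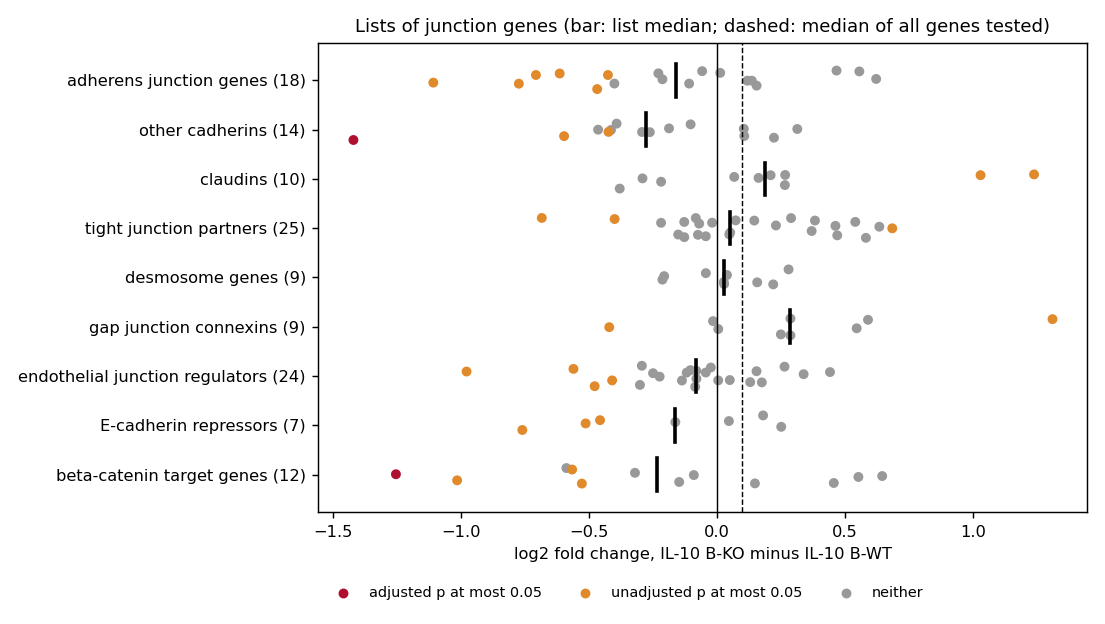
Log2 fold change between IL-10 B-KO and IL-10 B-WT (horizontal axis) of every tested gene in 9 lists of junction genes and their regulators, 1 point per gene, with the number tested after each name, the list median as a black bar and the median of all genes tested (0.10) as a dashed line. Only Pcdh18 and Tnfrsf19 (red) have an adjusted p of at most 0.05, and the points at an unadjusted p of at most 0.05 (orange) lie below 0 in the lists of adherens junction genes, other cadherins, endothelial regulators, E-cadherin repressors and beta-catenin targets.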

How the data were processed

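RNA-seq of whole lung was compared between 6 mice of the IL-10 B-WT and 6 of the IL-10 B-KO genotype on day 4 after LPS. The authors deposited 1 table of TPM per gene and library, computed with RSEM, without pooling. The submitters' processing notes name fastp, HISAT, RSEM and GRCm38.p5, and versions and annotation release were not given in the sources used here. Columns summed to 991646 to 994430 TPM, and each of the 12 columns was matched to its sample by name. TPM keep no depth, so no counting error could be given and precision rests on the spread between lungs. Since a library shares 1 total, abundant transcripts lower the TPM of others.

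A gene was tested (15148 in all) if at least 6 libraries reached 1 TPM, and fitted with limma 3.58.1 in R 4.3.3 (lmFit, then eBayes, trend on) on log2(TPM + 1) for genotype alone, with Benjamini-Hochberg adjustment over all of them. The code was tested on simulated data for the same number of genes and libraries. The simulated noise was independent for each gene and library. Shifts shared by many genes of a lung were therefore not covered, and the rates may differ in the real data. At an adjusted p of 0.05 the code called 48 of 100 genes with a true log2 fold change of 1 and 89 of 100 with 2. It also called 3 of 14948 genes with no difference. A gene that did not pass may therefore still differ. Ratios and marker comparisons used exact permutation tests, and correlations 100000 resamples (SciPy 1.17.1). Genomic positions came from GENCODE M21 (GRCm38), where all 10 members matched. Members, gene lists (9 of pathways, 21 of cell types) and the alternative without replicate 1 of IL-10 B-WT and replicate 2 of IL-10 B-KO were chosen with earlier results of these data known. Every member was named, and from each pathway list at most the 3 genes of smallest p on each side at an unadjusted p of 0.05. A gene that this rule names is not reported here. The genes most like Cdh1, Cdh2 and Cdh5 were the 3 of highest r. Alternatives were a pseudocount of 0.1 TPM, no filter, a filter on a mean of 5 TPM, quantile normalization, rescaling after removal of 395 immunoglobulin genes, array quality weights, centring on the median, robust variance shrinkage, a replicate block and leaving out libraries.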

Additional observations from a re-analysis of the deposited data

Results flagged for a closer look

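In 28 groups of 6 values (the members and the ratios in each genotype), a single lung far from the other 5 was looked for by Dixon's test at its 95% critical value of 0.625, which chance exceeds in about 1 of 20 groups. In all, 3 values were marked. Esam in IL-10 B-KO replicate 2 was at 290.4 TPM, with the other 5 lungs at 170.9 to 191.8 TPM. This library also had the highest endothelial marker sum of its genotype, 4554 TPM against 2134 to 2936 TPM. Ctnnb1 in IL-10 B-WT replicate 5 was at 184.6 TPM, with the other 5 lungs at 289 to 340.8 TPM. The Cdh5 to Cdh1 ratio in the same lung was 30.19, with the others at 3.234 to 12.4, beside the lowest epithelial marker sum of all 12 lungs. The part of these marker levels in the 3 values was not tested.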

How the results depend on the processing

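Over 22 alternatives, 9 of 10 members kept the sign of their log2 fold change wherever they were tested (Cdh2 in 21, since its mean lies below the filter at 5 TPM). Ctnnb1 turned to -0.105 under quantile normalization and -0.0592 under array quality weights, and ranged from -0.0076 to 0.169 over single lungs left out. Members at an adjusted p of 0.05 numbered 0, but 1 (Cdh2) under array quality weights and without replicate 1 of IL-10 B-WT and replicate 2 of IL-10 B-KO, and 0 to 1 with single lungs left out (1 without IL-10 B-WT replicate 1 or replicate 3). The adjusted p of Cdh2 ran from 0.00504 to 0.176 over its alternatives. Members at an unadjusted p of 0.05 numbered 2, and 1 with the filter at 5 TPM, 5 under array quality weights, 6 without both libraries, and 1 to 6 with single lungs left out (6 without IL-10 B-WT replicate 1, 1 without IL-10 B-KO replicate 5). Over all genes, 79 passed an adjusted p of 0.05, against 8 with no filter, 28 without immunoglobulin genes, 44 under quantile normalization, 39 under median centring, 669 under array quality weights, 15 to 728 with single lungs left out and 2228 without both libraries. Median centring moved the median log2 fold change of all genes by -0.107.

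The Cdh2 to Cdh1 and Cdh2 to Cdh5 ratios kept direction and call under all 15 alternatives. The Cdh5 to Cdh1 difference was -1.374 without both libraries, -1.262 to -0.617 with single lungs left out and passed under the replicate block. The Cldn5 to Cdh5 difference was -0.102 without both libraries and -0.0922 to 0.125 with single lungs left out. Against list medians, Esam differed by -0.140 from endothelial and Cdh2 by 0.371 from pericyte markers. With single lungs left out, Cdh2 relative to pericyte markers ranged from -0.114 to 0.062 and relative to heart muscle markers from -0.236 to 0.551, and the latter was -0.369 with 0.1 TPM added. The cause of these changes was not tested.

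Replicate numbers are shared by both genotypes, but same-numbered lungs did not deviate together (r from -0.291 to 0.0458), so the numbers were not treated as pairs. With the replicate block, 0 members passed an adjusted p of 0.05, 2 had an unadjusted p of at most 0.05, 45 genes passed in all, Pcdh18 and Tnfrsf19 had limma adjusted p of 0.0626 and 0.119, and the Cdh5 to Cdh1 difference of -0.9685 had an exact permutation p of 0.03125, the smallest that 6 pairs allow. Depth is unknown, which limits what can be said of Cdh2, at 0.35 to 4.87 TPM.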
